A study of Mus musculus with 30 samples.

Results

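Gene expression in injured mouse muscle was compared between 11 and 4 days after volumetric muscle loss, a surgical injury that takes out part of a muscle. The libraries were chosen by their titles: 6 were taken 11 days after injury (3 female and 3 male) and 6 were taken 4 days after injury (3 female and 3 male), 12 of the 30 libraries in the series. Tibialis anterior muscle, which lies along the shin and lifts the foot, was used for every library, and the others of the series were uninjured or taken 7 or 15 days after injury. No strain, age, genotype or drug treatment is named in the labels used here, so the groups are described by sex and day alone. The labels do not say that replicates came from separate animals, so the p-values reflect only how these samples spread, which may be technical. The comparison asks which transcripts of the injured muscle differ between the inflammatory phase and a later phase of repair.

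After muscle injury, neutrophils and monocytes enter the tissue and clear debris, and macrophages then take over and support repair. Satellite cells, the stem cells of muscle, divide, and their daughters exit the cell cycle and fuse into new fibres, which express embryonic and perinatal myosins before adult ones. Fibroblasts and related progenitors lay down collagen and other matrix, while vessels and nerves grow back and form new synapses on the fibres.

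Total counts ran from 27129433 to 38555740 in the day 11 libraries and from 47936072 to 57277336 in the day 4 libraries, so the later day was the less deeply sequenced. Values are CPM, counts scaled to the library size after TMM adjustment, and are compared only within a gene. The muscle transcripts Acta1, Ckm, Myh4 and Des were abundant in every library, with Acta1, skeletal actin, at 6289 to 22410.0 CPM at day 11 (median 15133), against 3496 to 17983 CPM at day 4 (median 14929.7). Against its label, female day 11 replicate 3 had 57.4 CPM of Ddx3y, a gene of the Y chromosome, and 0.109 CPM of Xist, the RNA of X inactivation. It was kept under its label. On principal components of log2 CPM the days were apart along the first, which held 54.5% of the variance, while the second, with 15.2%, set female day 11 replicate 3 and male day 11 replicate 1 apart from the other 4 day 11 libraries. The library female day 4 replicate 2 lay farthest out on the first component and was lowest in mature muscle transcripts, with 321 CPM of Ckm, the muscle creatine kinase, against 1578 to 2567 CPM in the other day 4 libraries. Named genes whose calls were lost without these libraries are given as such beside their values or in the closing section.

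**Figure D1:**
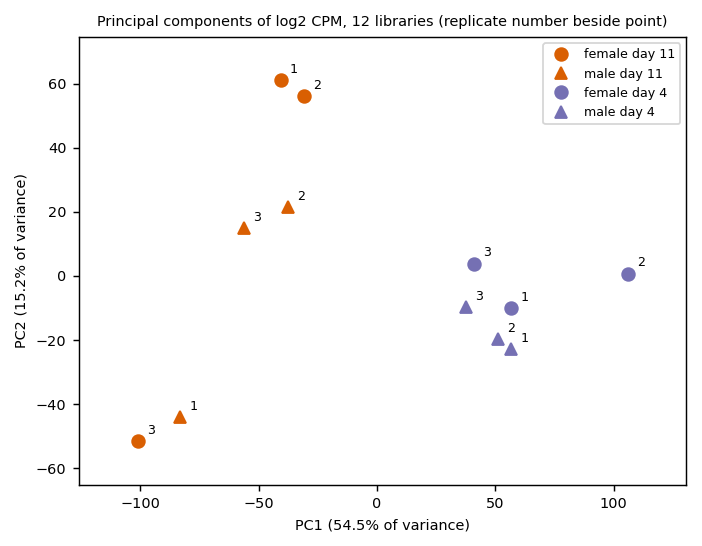
First 2 principal components of log2 CPM in the 12 libraries, with the share of variance (%) on each axis. Colours mark the day, shapes the sex and numbers the replicate. All 6 day 11 libraries lie at negative values of the first component (54.5% of variance) and all 6 day 4 libraries at positive values.

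Of 17136 genes tested, 4032 were higher at day 11 (23.5%) and 3759 were lower (21.9%), 45.5% in all, at an adjusted p under 0.05 in edgeR's quasi-likelihood test. The change was past 2-fold in 2083 and 1697 of them. In 2100 genes every day 11 library was above every day 4 library (12.3%), and in 2385 every day 11 library was below (13.9%), which is 26.2% in all. Across all tested genes the median log2 fold change, day 11 over day 4, was 0.04. With library size alone in place of TMM the median was -0.12 and 2885 genes were higher and 4664 lower, so that 38.2% of called genes were higher, against 51.8% with TMM. Fold changes below are relative to the TMM scaling, with their standard errors (the fold change over the square root of its F statistic) after ±. Counts of list members called can be set beside these shares of all genes, as a description only. The lists and their members were chosen with earlier results of these data known. A share called above that of all genes is therefore not an independent test of a list. A list whose share called, in both directions together, is near or under 45.5% holds no excess of called genes. Without female day 4 replicate 2 the counts were 3102 higher and 3324 lower, and without that library and female day 11 replicate 3 together they were 2693 and 3006.

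**Figure D2:**
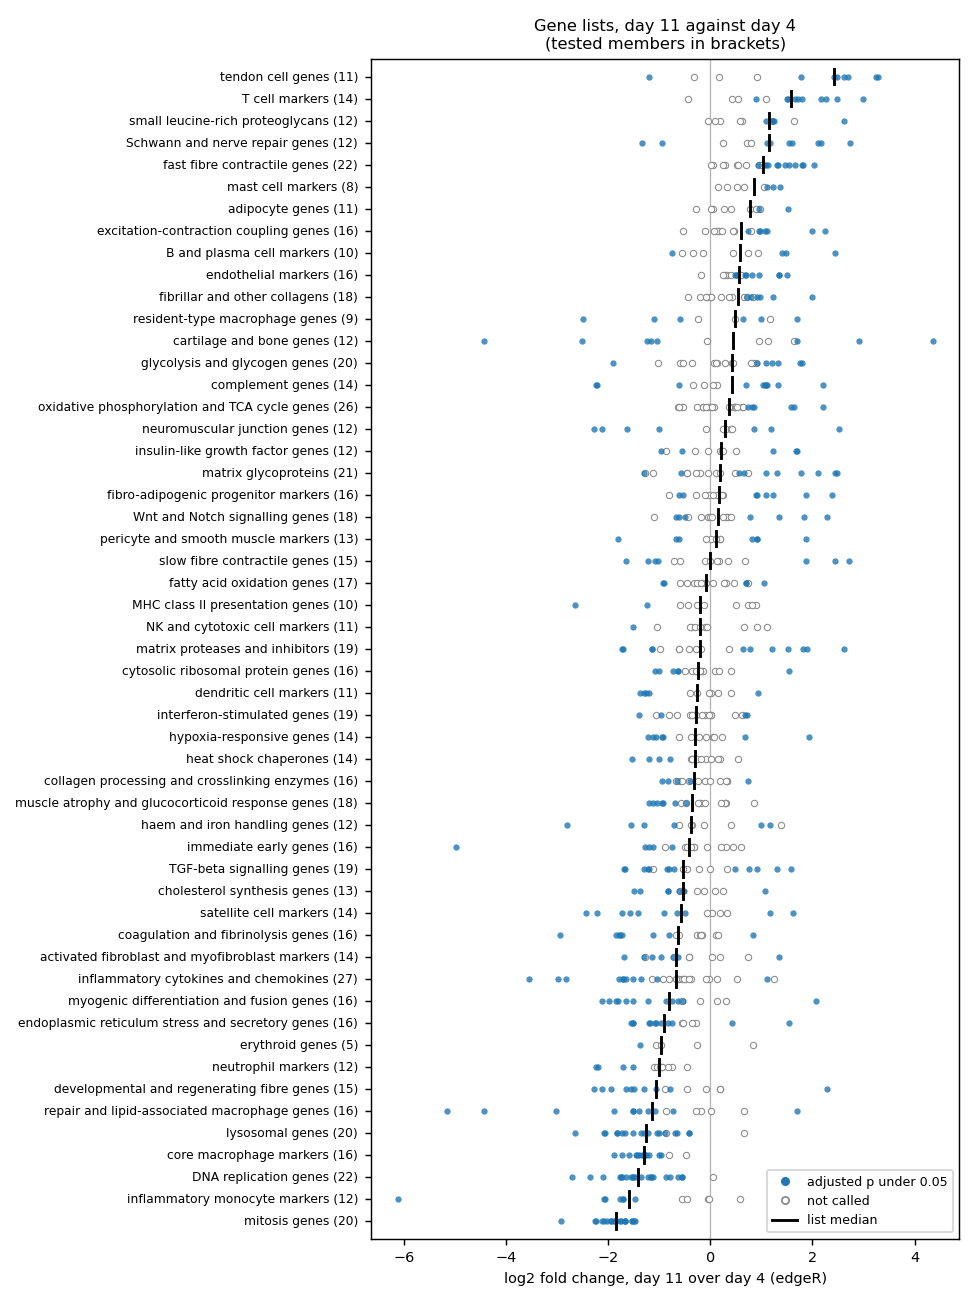
Log2 fold change (day 11 over day 4, x axis) of each tested member of the 53 gene lists, ordered by list median (black bar). Filled points passed edgeR's test at an adjusted p under 0.05. Tendon genes have the highest median (2.42) and mitosis genes the lowest (-1.85), beside 0.04 for all tested genes.

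Macrophage transcripts were lower at day 11. 14 of 16 core macrophage markers fell and none rose (median log2 fold change -1.31). Cd68, a lysosomal glycoprotein of phagocytes, had 20.4 to 214 CPM at day 11 (median 86.3), against 289 to 375 CPM at day 4 (median 329). Every day 11 library was below every day 4 library (log2 fold change -1.88 ± 0.45, edgeR adjusted p = 0.00170). Lyz2, the lysozyme of myeloid cells, had 77.9 to 887 CPM at day 11 (median 509), against 1210.2 to 2063 CPM at day 4 (median 1360.4), again with no overlap (log2 fold change -1.72 ± 0.44, edgeR adjusted p = 0.00260). Adgre1, the gene of the F4/80 antigen of macrophages, had 5.67 to 54.8 CPM at day 11 (median 27.8), against 45.2 to 117 CPM at day 4 (median 68.5). The groups overlapped and the gene fell (log2 fold change -1.33 ± 0.40, edgeR adjusted p = 0.00872). Mrc1, the mannose receptor, fell by less (log2 fold change -0.97 ± 0.27, edgeR adjusted p = 0.00467). It was at -0.51 and not called without female day 4 replicate 2 and female day 11 replicate 3 (edgeR adjusted p = 0.0742). Averaged over the 16 markers, log2 CPM was 3.73 in female day 11 replicate 3 and 4.54 in male day 11 replicate 1, the lowest of all, against 5.48 to 6.43 in the other 4 day 11 libraries and 6.54 to 7.18 at day 4. Without those 2 libraries 12 of 16 markers still fell. In whole muscle, fewer cells of a type and less RNA per cell cannot be told apart.

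Genes of activated and lipid-laden macrophages were lower as well. Of 16 repair and lipid-associated macrophage genes, 10 fell and 1, Igf1, rose (median -1.15). Arg1, arginase, which takes arginine away from nitric oxide synthesis, had 0.153 to 2.41 CPM at day 11 (median 0.715), against 7.43 to 107 CPM at day 4 (median 19.4), with no overlap (log2 fold change -5.16 ± 0.60, edgeR adjusted p = 1.95e-06). Spp1, osteopontin, a secreted phosphoprotein of macrophages and bone cells, had 16.3 to 286 CPM at day 11 (median 64.1), against 944 to 2686 CPM at day 4 (median 1818) (log2 fold change -4.43 ± 0.62, edgeR adjusted p = 1.16e-05). Its highest day 11 value was in male day 11 replicate 2, and the log2 fold change without that library was -5.29. Gpnmb, a glycoprotein of phagocytes that have taken up lipid and debris, had 16.7 to 167 CPM at day 11 (median 75.2), against 550.2 to 839 CPM at day 4 (median 626) (log2 fold change -3.02 ± 0.53, edgeR adjusted p = 0.000106). All 6 day 11 libraries lay below all 6 day 4 libraries in these 3 genes. Arg1 and Spp1 were named by size from genes without overlap, so for them this is part of the choice. Among 9 resident-type macrophage genes, 3 fell and 3 rose. Folr2, a folate receptor of tissue macrophages, had 2.59 to 20.3 CPM at day 11 (median 8.90), against 39.1 to 62.5 CPM at day 4 (median 56.0), with every day 11 library lower (log2 fold change -2.50 ± 0.38, edgeR adjusted p = 2.64e-05). Cbr2, a carbonyl reductase, fell too (log2 fold change -1.11 ± 0.21, edgeR adjusted p = 0.000198). Retnla, a secreted protein of alternatively activated macrophages, had 1.91 to 4.496 CPM at day 11 (median 3.44), against 0.245 to 2.35 CPM at day 4 (median 0.882) and rose, with some overlap (log2 fold change 1.70 ± 0.49, edgeR adjusted p = 0.00706).

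Chil3, a chitinase-like protein of monocytes and macrophages whose reads may be shared with a close paralog, showed the largest fall of the genes named by size, with 0 to 0.688 CPM at day 11 (median 0.206), against 13.7 to 34.5 CPM at day 4 (median 19.8) (log2 fold change -6.13 ± 0.67, edgeR adjusted p = 1.62e-06). It was not seen in 1 male day 11 library, and without male day 11 replicate 2, its highest day 11 library, the log2 fold change was -7.63. Of 12 inflammatory monocyte markers, 7 fell and none rose (median -1.59). Itgam, the CD11b integrin chain, had 6.54 to 48.3 CPM at day 11 (median 25.1), against 78.2 to 162 CPM at day 4 (median 92.2), with no overlap (log2 fold change -2.054 ± 0.39, edgeR adjusted p = 0.000214). Ly6c2, the surface marker of inflammatory monocytes, had 0.463 to 6.14 CPM at day 11 (median 0.867), against 3.02 to 12.1 CPM at day 4 (median 6.99) (log2 fold change -2.08 ± 0.52, edgeR adjusted p = 0.00256). The overlap came from female day 11 replicate 2, without which the log2 fold change was -3.12. Of 12 neutrophil markers, 4 fell (Csf3r, Cxcr2, Mmp8 and Trem1) and none rose (median -1.01). The share called was smaller than the 45.5% of all genes in both directions together, and 21.9% of all genes fell. The number of neutrophil markers that fell was 7 without female day 11 replicate 2. Csf3r, through which granulocyte colony-stimulating factor acts, had 7.03 to 28.5 CPM at day 11 (median 12.04), against 35.5 to 44.8 CPM at day 4 (median 38.6), with no overlap (log2 fold change -1.52 ± 0.31, edgeR adjusted p = 0.000433). The other 8, S100a8 and S100a9 among them, did not pass the test.

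Several chemokines were lower at day 11. Of 27 inflammatory cytokines and chemokines, 10 fell and 1, Cxcl9, rose (median -0.68). The share called was smaller than the 45.5% of all genes in both directions together, and 21.9% of all genes fell. Without female day 11 replicate 2, in which this list stood highest at day 11, 17 of the 27 fell. Ccl2, the main attractant of monocytes, had 1.13 to 8.59 CPM at day 11 (median 2.74), against 28.0 to 71.2 CPM at day 4 (median 33.8), with no overlap (log2 fold change -3.55 ± 0.47, edgeR adjusted p = 7.07e-06). Ccl7, which shares its receptors, had 1.01 to 13.03 CPM at day 11 (median 2.91), against 23.6 to 68.8 CPM at day 4 (median 34.9) (log2 fold change -2.99 ± 0.60, edgeR adjusted p = 0.000359), and the log2 fold change was -3.63 without male day 11 replicate 2. Ccr1, a receptor for inflammatory chemokines on myeloid cells, had 0.327 to 3.12 CPM at day 11 (median 1.04), against 12.6 to 35.7 CPM at day 4 (median 19.5) (log2 fold change -4.09 ± 0.48, edgeR adjusted p = 2.33e-06). In these 3 genes day 11 was lower in every library. Cxcl5, a neutrophil attractant, had 0.0545 to 2.57 CPM at day 11 (median 0.116), against 1.36 to 6.04 CPM at day 4 (median 3.16) and overlapped (log2 fold change -2.83 ± 0.72, edgeR adjusted p = 0.00336). Its log2 fold change was -4.33 without male day 11 replicate 2 and -3.82 without female day 11 replicate 2.

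**Figure D3:**
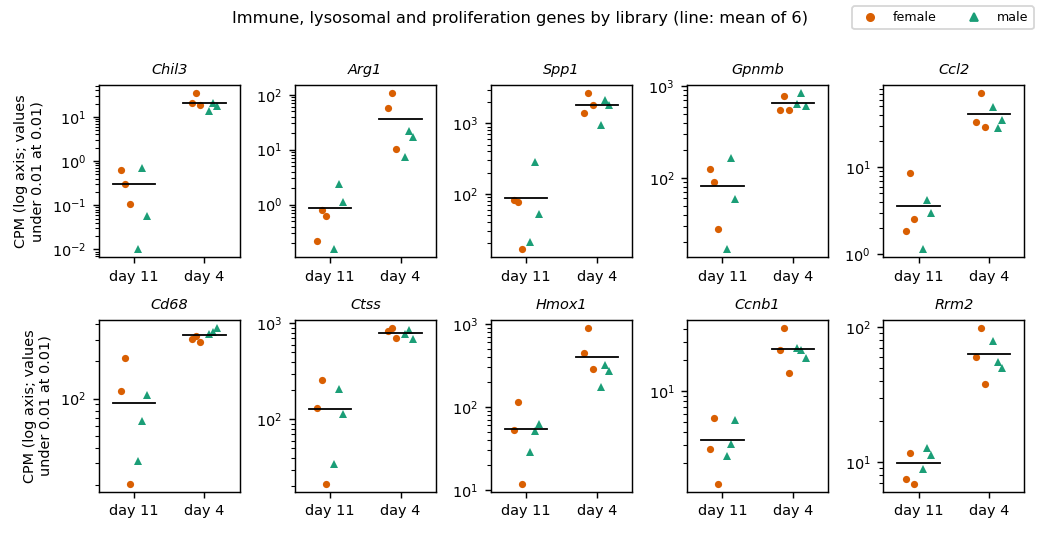
CPM (log axis, with values under 0.01 drawn at 0.01) of 10 genes that fell, by library, with day 11 left of day 4 in each panel, circles for female and triangles for male libraries and a line at the mean of 6. In each panel shown every day 11 point lies below every day 4 point, as for Arg1 (0.153 to 2.41 CPM at day 11, against 7.43 to 107 CPM at day 4).

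Lysosomal genes were lower at day 11 as well. 18 of 20 lysosomal genes fell and none rose (median -1.25), 15 of them without overlap between the days. Ctss, the cathepsin that trims the invariant chain of MHC class II, had 21.2 to 256 CPM at day 11 (median 122), against 685 to 903 CPM at day 4 (median 803) (log2 fold change -2.65 ± 0.51, edgeR adjusted p = 0.000229). Ctsl, another cathepsin, had 57.0 to 293 CPM at day 11 (median 138), against 561 to 715 CPM at day 4 (median 614) (log2 fold change -2.06 ± 0.33, edgeR adjusted p = 4.01e-05). Ctsh had 18.3 to 63.7 CPM at day 11 (median 43.3), against 151 to 201 CPM at day 4 (median 166) (log2 fold change -2.08 ± 0.31, edgeR adjusted p = 1.95e-05). The day 11 libraries were below the day 4 libraries throughout for these cathepsins. Of 12 haem and iron handling genes, 4 fell (Hmox1, Fth1, Cd163 and Slc11a1) and 2 rose (Hpx and Cp). Hmox1, haem oxygenase, which opens the haem ring, had 11.8 to 116 CPM at day 11 (median 51.6), against 173 to 904 CPM at day 4 (median 302), with no overlap (log2 fold change -2.80 ± 0.43, edgeR adjusted p = 2.80e-05). Slc11a1, a metal transporter of phagosomes, fell without overlap (log2 fold change -1.56 ± 0.34, edgeR adjusted p = 0.000676), and Cd163, the haemoglobin scavenger receptor, fell with some (log2 fold change -1.31 ± 0.33, edgeR adjusted p = 0.00282). In female day 11 replicate 3 and male day 11 replicate 1, the libraries lowest in macrophage markers, the lysosomal list mean was 5.60 and 5.95 log2 CPM. It was 6.60 to 7.22 in the other day 11 libraries. The mean of the haem and iron list was 3.69 and 3.91 in those 2 libraries, against 4.05 to 4.72 in the other day 11 libraries. The part of macrophages in these falls was not tested.

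Some clotting and fibrinolysis genes were lower. Of 16 coagulation and fibrinolysis genes, 7 fell and 1, Procr, rose (median -0.64). Plaur, the urokinase receptor, which holds a plasminogen activator at the cell surface, had 4.197 to 15.2 CPM at day 11 (median 9.40), against 24.8 to 44.1 CPM at day 4 (median 31.2), with no overlap (log2 fold change -1.78 ± 0.32, edgeR adjusted p = 0.000116). F7, coagulation factor VII, had 0.673 to 4.66 CPM at day 11 (median 1.43), against 8.93 to 18.5 CPM at day 4 (median 14.1) (log2 fold change -2.95 ± 0.46, edgeR adjusted p = 3.42e-05), and -3.55 without male day 11 replicate 2. F13a1, the factor that crosslinks fibrin, had 7.93 to 24.8 CPM at day 11 (median 19.7), against 32.6 to 139 CPM at day 4 (median 49.8) (log2 fold change -1.85 ± 0.30, edgeR adjusted p = 5.30e-05). Both factors were lower in every day 11 library.

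T cell markers went the other way. 10 of 14 T cell markers rose and none fell (median 1.59), but levels were low. Cd3g and Cd3d are subunits of the T cell receptor complex: Cd3g had 0.654 to 7.20 CPM at day 11 (median 1.79), against 0.163 to 0.899 CPM at day 4 (median 0.334) (log2 fold change 2.47 ± 0.51, edgeR adjusted p = 0.000480). Cd3d had 0.545 to 6.79 CPM at day 11 (median 1.22), against 0.0491 to 0.699 CPM at day 4 (median 0.381) (log2 fold change 2.27 ± 0.56, edgeR adjusted p = 0.00201). The groups overlapped in both, and female day 11 replicate 2 was the highest. The mean log2 CPM of the list was 2.051 in that library, against -0.12 to 0.69 in the other day 11 libraries and -1.39 to -0.23 at day 4. Without it 6 of 14 rose, the log2 fold change of Cd3d was 1.54, and Cd3e, a further subunit (log2 fold change 1.65 ± 0.53, edgeR adjusted p = 0.0129), was at 0.96 and no longer passed (adjusted p = 0.126). Foxp3, the transcription factor of regulatory T cells, picked out after its values were seen, had 0.336 to 2.69 CPM at day 11 (median 0.706), against 0.0499 to 0.229 CPM at day 4 (median 0.0937), with no overlap (log2 fold change 3.00 ± 0.45, edgeR adjusted p = 2.33e-05). Cd2, an adhesion receptor of T cells, rose with overlap (log2 fold change 1.80 ± 0.48, edgeR adjusted p = 0.00405).

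Other leukocyte lists were mixed. Of 10 B and plasma cell markers, 3 rose (Pax5, Mzb1 and Jchain) and 1 fell (Xbp1). Mzb1, a chaperone of antibody-secreting cells, had 1.53 to 4.17 CPM at day 11 (median 2.13), against 0.454 to 1.51 CPM at day 4 (median 0.699), with no overlap (log2 fold change 1.48 ± 0.33, edgeR adjusted p = 0.000904), while Xbp1, a transcription factor of secretory cells, fell (log2 fold change -0.75 ± 0.14, edgeR adjusted p = 0.000247). Of 8 mast cell markers, 3 rose (Cpa3, Cma1 and Mcpt4) and none fell, a number that was 1 without female day 11 replicate 1, male day 11 replicate 2, female day 4 replicates 1 or 2 or male day 4 replicate 2. Of 11 dendritic cell markers, 4 fell (Itgax, Flt3, Cd209a and Irf8) and 1, Batf3, rose. Itgax, the CD11c integrin chain, had 7.65 to 30.9 CPM at day 11 (median 23.2), against 38.5 to 72.2 CPM at day 4 (median 49.9) (log2 fold change -1.27 ± 0.39, edgeR adjusted p = 0.0106). Cd209a, a lectin of monocyte-derived dendritic cells, fell without overlap (log2 fold change -1.30 ± 0.38, edgeR adjusted p = 0.00776). Without female day 11 replicate 3 and male day 11 replicate 1 together, 1 dendritic cell marker fell, and Cd209a, Flt3 and Itgax did not pass (edgeR adjusted p = 0.0511, 0.0543 and 0.0699). Of 11 NK and cytotoxic cell markers, 1 fell, the granzyme Gzma (log2 fold change -1.52 ± 0.54, edgeR adjusted p = 0.0229). The fall was at -2.29 without female day 11 replicate 2, and the call was lost without female day 11 replicate 1, male day 11 replicate 1, female day 4 replicate 3 or male day 4 replicate 1 (adjusted p up to 0.0585). Without female day 11 replicate 2, 4 of these markers fell.

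Antigen presentation, complement and interferon genes showed no single direction. Of 10 MHC class II presentation genes, 2 fell, Ctss and the thiol reductase Ifi30 (log2 fold change -1.24 ± 0.31, edgeR adjusted p = 0.00255), and 8 were not called. Without female day 11 replicate 3, 4 rose and 2 fell. Of 14 complement genes, 7 rose and 3 fell. C2, a protease of the classical pathway, had 8.84 to 25.9 CPM at day 11 (median 12.8), against 4.26 to 7.65 CPM at day 4 (median 5.18), with no overlap (log2 fold change 1.33 ± 0.22, edgeR adjusted p = 6.33e-05). The receptors for the complement peptides C3a and C5a were among those that fell: C3ar1 had 6.27 to 69.6 CPM at day 11 (median 33.4), against 118 to 193 CPM at day 4 (median 148) (log2 fold change -2.25 ± 0.39, edgeR adjusted p = 0.000107). C5ar1 had 2.56 to 25.5 CPM at day 11 (median 13.9), against 46.9 to 106 CPM at day 4 (median 54.8) (log2 fold change -2.21 ± 0.42, edgeR adjusted p = 0.000200). Among 19 interferon-stimulated genes, 2 fell (Oas3 and Rsad2) and 2 rose (Ifi44 and Xaf1). Female day 11 replicate 2 stood at a list mean of 6.41 log2 CPM, against 3.82 to 4.499 in the other day 11 libraries and 4.45 to 5.80 at day 4, and without it 10 fell and none rose. Oas3, a sensor of viral RNA, had a log2 fold change of -1.39 ± 0.49 with it and -2.36 without it. The call was lost without female day 11 replicate 1, male day 11 replicates 1 or 3 or male day 4 replicate 3 (adjusted p up to 0.0618).

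Cell division genes fell together. All 20 tested mitosis genes fell (median -1.85), and in all 20 every day 11 library was below every day 4 library. Ccnb1, cyclin B1, which drives entry into mitosis, had 1.25 to 5.53 CPM at day 11 (median 2.91), against 15.1 to 41.4 CPM at day 4 (median 25.1) (log2 fold change -2.93 ± 0.42, edgeR adjusted p = 1.77e-05). Cdc20, which activates the anaphase-promoting complex, had 3.27 to 9.35 CPM at day 11 (median 5.05), against 18.0 to 38.3 CPM at day 4 (median 26.7) (log2 fold change -2.24 ± 0.32, edgeR adjusted p = 1.33e-05). Tpx2, a spindle assembly factor, had 4.52 to 10.2 CPM at day 11 (median 7.72), against 25.6 to 61.7 CPM at day 4 (median 34.1) (log2 fold change -2.27 ± 0.31, edgeR adjusted p = 1.12e-05). The proliferation antigen Mki67 fell by less (log2 fold change -1.47 ± 0.32, edgeR adjusted p = 0.000749). All 20 fell without female day 11 replicate 3 and male day 11 replicate 1, and all 20 without female day 4 replicate 2, which had the highest list mean. Of 22 DNA replication genes, 21 fell and 1, Ccne2, was not called (median -1.42). Rrm2, the subunit of ribonucleotide reductase made in S phase, had 6.87 to 12.6 CPM at day 11 (median 10.1), against 38.0 to 99.5 CPM at day 4 (median 57.5) (log2 fold change -2.71 ± 0.31, edgeR adjusted p = 1.89e-06). Mcm5, of the replicative helicase, had 5.02 to 8.35 CPM at day 11 (median 5.80), against 18.2 to 50.5 CPM at day 4 (median 28.1) (log2 fold change -2.35 ± 0.28, edgeR adjusted p = 3.10e-06). The days did not overlap in these genes or in Gins2, a further DNA replication gene (log2 fold change -2.10 ± 0.40, edgeR adjusted p = 0.000200). Female day 4 replicate 2 had the highest value of the day 4 libraries in Ccnb1, Rrm2 and Mcm5.

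Promoters are shown for 2 of the mitosis genes described above, since mitotic promoters in mouse are known to carry the cell cycle homology region (CHR, TTTGAA), which binds repressor complexes in resting cells, and CCAAT boxes, which bind NF-Y. Of the mitosis genes, 16 of 20 matched RefSeq promoters of build GRCm38.p6, and the 250 bases before the annotated start were searched on both strands. CCAAT was found for 87.5% of them, against 58.8% of 17 matched DNA replication genes and 39.3% of 13373 tested genes, and TTTGAA for 43.8%, against 5.88% and 13.6%. Below, capitals mark each match to either motif on either strand, and each sequence runs 5′ to 3′ in the direction of the gene. The window of Ccnb1 (chr13:100786487-100786736, minus strand) holds 2 CCAAT boxes and no TTTGAA, and that of Cdc20 (chr4:118437344-118437593, minus strand) holds 2 and 1, the TTTGAA lying 18 bases before the start, and no matches overlap. Only the letters TTTGAA were searched for as the CHR, so a promoter without them may hold another form of it. A match is a description of the letters, and binding was not measured.
Ccnb1: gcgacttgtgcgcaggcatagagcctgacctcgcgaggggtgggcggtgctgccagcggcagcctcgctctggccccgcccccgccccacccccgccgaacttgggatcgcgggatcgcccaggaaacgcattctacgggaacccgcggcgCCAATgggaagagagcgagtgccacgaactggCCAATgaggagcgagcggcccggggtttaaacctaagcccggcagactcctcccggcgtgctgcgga
Cdc20: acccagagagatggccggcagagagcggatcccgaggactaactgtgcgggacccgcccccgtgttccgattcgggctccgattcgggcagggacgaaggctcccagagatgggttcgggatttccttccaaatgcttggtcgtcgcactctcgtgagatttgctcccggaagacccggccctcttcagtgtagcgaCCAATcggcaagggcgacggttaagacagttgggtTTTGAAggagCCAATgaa

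Satellite cell and early fibre genes were lower at day 11. Of 14 satellite cell markers, 8 fell and 2 rose (Calcr and Chodl), and the number that rose was 1 without any single library other than female day 11 replicates 1 and 2. Pax7, the transcription factor that marks these cells, had 0.976 to 3.68 CPM at day 11 (median 1.86), against 7.65 to 18.0 CPM at day 4 (median 10.6) (log2 fold change -2.43 ± 0.32, edgeR adjusted p = 7.36e-06). Cdh15, M-cadherin, which joins satellite cells to fibres, had 12.8 to 27.4 CPM at day 11 (median 20.4), against 72.9 to 119.7 CPM at day 4 (median 87.0) (log2 fold change -2.23 ± 0.17, edgeR adjusted p = 1.65e-08). Megf10, a receptor of dividing satellite cells, had 6.70 to 14.0 CPM at day 11 (median 9.51), against 24.3 to 57.5 CPM at day 4 (median 28.7) (log2 fold change -1.74 ± 0.28, edgeR adjusted p = 4.99e-05). In all 3 the days were fully apart. Of 16 myogenic differentiation and fusion genes, 11 fell and 1 rose (median -0.81). Mymk and Mymx encode the membrane proteins that let myoblasts fuse: Mymk had 16.5 to 161 CPM at day 11 (median 112), against 340.2 to 435 CPM at day 4 (median 371) (log2 fold change -1.99 ± 0.41, edgeR adjusted p = 0.000440). Mymx had 5.996 to 38.9 CPM at day 11 (median 23.6), against 63.5 to 89.0 CPM at day 4 (median 77.4) (log2 fold change -1.84 ± 0.39, edgeR adjusted p = 0.000749). Myog, the regulator of terminal differentiation, had 63.5 to 347 CPM at day 11 (median 255), against 401 to 539 CPM at day 4 (median 516) (log2 fold change -1.21 ± 0.33, edgeR adjusted p = 0.00412). Each of these was lower in every day 11 library. Igfn1, the member that rose, had 318 to 2695 CPM at day 11 (median 551), against 43.0 to 371 CPM at day 4 (median 196), with overlap (log2 fold change 2.07 ± 0.48, edgeR adjusted p = 0.00121).

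Genes of developing and regenerating fibres were mostly lower. Of 15 developmental and regenerating fibre genes, 9 fell, all without overlap, and 1, Dlk1, rose (median -1.05). Embryonic myosin, Myh3, had 70.3 to 772 CPM at day 11 (median 604), against 1578 to 2320.4 CPM at day 4 (median 1947) (log2 fold change -1.95 ± 0.47, edgeR adjusted p = 0.00180), and its lowest day 11 value was in female day 11 replicate 3. Perinatal myosin, Myh8, had 83.9 to 1130.5 CPM at day 11 (median 849.6), against 391 to 862 CPM at day 4 (median 557) and was not called, with overlapping groups (log2 fold change 0.18 ± 0.39, edgeR adjusted p = 0.726). Across the series the median of Myh3 was 4.03 CPM in uninjured muscle and 1947, 887, 604 and 114 CPM at days 4, 7, 11 and 15, and that of Myh8 was 14.2 CPM in uninjured muscle and 557, 759, 849.6 and 198 CPM at days 4, 7, 11 and 15. Dlk1, an imprinted Notch-family ligand of growing fibres and their progenitors, had 12.6 to 101 CPM at day 11 (median 54.6), against 6.11 to 17.8 CPM at day 4 (median 10.7) (log2 fold change 2.28 ± 0.45, edgeR adjusted p = 0.000294). The imprinted growth factor Igf2, likewise high in developing muscle, was not called (log2 fold change 0.19 ± 0.32, edgeR adjusted p = 0.649). The list mean was 6.28 in female day 11 replicate 3 and 6.86 in male day 11 replicate 1, against 8.04 to 8.22 in the other day 11 libraries and 8.47 to 8.94 at day 4, and without those 2 libraries 6 fell.

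Among genes of the neuromuscular junction, the fetal and adult subunits of the acetylcholine receptor moved in opposite directions. RNA at the junction and RNA elsewhere in the fibres cannot be told apart in whole muscle. Chrng, the fetal gamma subunit, had 17.9 to 69.1 CPM at day 11 (median 46.9), against 153 to 234 CPM at day 4 (median 211) (log2 fold change -2.13 ± 0.28, edgeR adjusted p = 7.44e-06). Chrne, the epsilon subunit that takes its place at the adult synapse, had 33.0 to 65.4 CPM at day 11 (median 41.9), against 0.209 to 12.2 CPM at day 4 (median 8.87) (log2 fold change 2.52 ± 0.47, edgeR adjusted p = 0.000181). Every day 11 library was below every day 4 library in Chrng and above every day 4 library in Chrne. In Chrne, female day 4 replicate 2 stood at 0.209 CPM, against 7.49 CPM or more in the other day 4 libraries. Chrna1, the alpha subunit common to both forms, had 46.4 to 179.6 CPM at day 11 (median 74.5), against 431 to 619 CPM at day 4 (median 473), again apart (log2 fold change -2.28 ± 0.34, edgeR adjusted p = 2.16e-05). Of 12 neuromuscular junction genes, 3 rose (Chrne, Lrp4 and Agrn) and 4 fell (Chrna1, Chrng, Musk and Rapsn). Across the series Chrng had a median of 0.245 CPM in uninjured muscle and 211, 64.1, 46.9 and 20.3 CPM at days 4, 7, 11 and 15, and Chrne had 44.7 CPM in uninjured muscle and 8.87, 45.1, 41.9 and 61.1 CPM at days 4, 7, 11 and 15.

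The promoters of these subunits are shown because the genes moved apart. E-boxes (CANNTG) bind the MyoD family, and the N-box (TTCCGG) is a site of ETS factors known from the synapse-specific expression of Chrne. Capitals mark a match to either motif on either strand in the 250 bases before the RefSeq start (GRCm38.p6), 5′ to 3′ along the gene. Chrng (chr1:87205561-87205810, plus strand) has 3 E-boxes and no N-box. Chrne (chr11:70619195-70619444, minus strand) has 1 E-box and 1 N-box, the N-box 76 bases before the start and read as CCGGAA on the gene's strand, and no matches overlap. Of the 13373 genes with a promoter, 63.6% held an E-box and 21.7% an N-box, and binding was not measured.
Chrne: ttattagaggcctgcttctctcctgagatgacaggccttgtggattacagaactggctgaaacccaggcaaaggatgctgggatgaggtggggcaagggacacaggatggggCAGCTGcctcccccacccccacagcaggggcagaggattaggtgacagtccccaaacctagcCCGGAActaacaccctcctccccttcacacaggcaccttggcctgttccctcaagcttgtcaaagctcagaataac
Chrng: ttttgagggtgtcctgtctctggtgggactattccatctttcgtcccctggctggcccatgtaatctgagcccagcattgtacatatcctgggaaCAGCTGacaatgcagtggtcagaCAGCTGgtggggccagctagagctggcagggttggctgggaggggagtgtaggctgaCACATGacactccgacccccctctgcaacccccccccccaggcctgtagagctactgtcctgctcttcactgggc

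**Figure D4:**
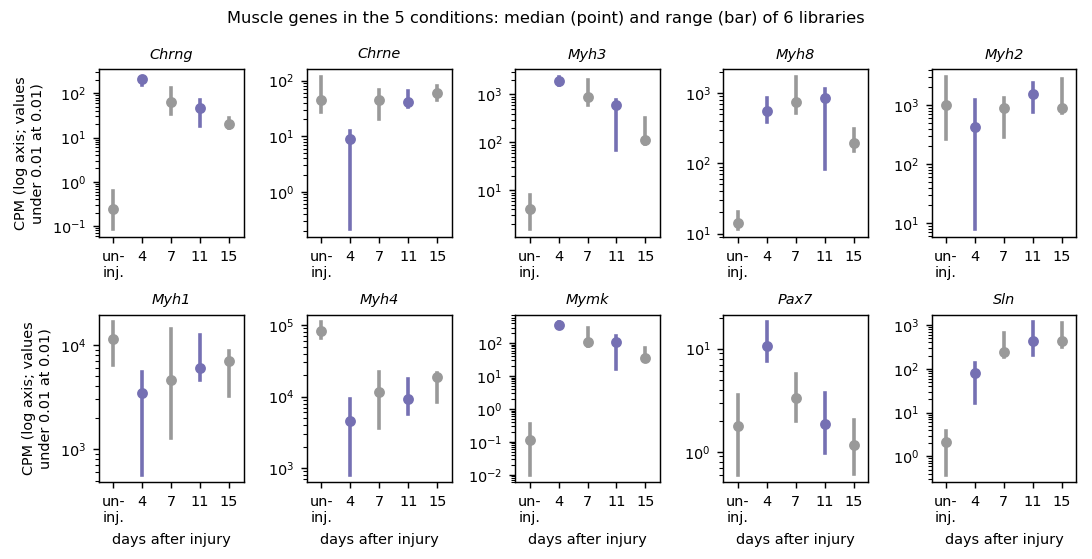
CPM (log axis, values under 0.01 drawn at 0.01) of 10 muscle genes in uninjured muscle and 4, 7, 11 and 15 days after injury, as median (point) and range (bar) of 6 libraries, with days 4 and 11 in colour. Chrng, Myh3, Mymk and Pax7 lie lower at day 11 than at day 4 with no overlap, Chrne and Sln lie higher with no overlap, and Myh8, Myh2, Myh1 and Myh4 overlap.

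Several mature fast fibre genes were higher at day 11. 12 of 22 fast fibre contractile genes rose and none fell (median 1.03). Pvalb, parvalbumin, the calcium buffer of fast fibres, had 4767 to 14334 CPM at day 11 (median 6401), against 66.7 to 3573 CPM at day 4 (median 1953), with no overlap (log2 fold change 2.02 ± 0.57, edgeR adjusted p = 0.00598), and was at 2.66 without female day 4 replicate 3. Tnni2, fast troponin I, had 5014 to 12984 CPM at day 11 (median 6519), against 293 to 3095 CPM at day 4 (median 2457), also apart (log2 fold change 1.81 ± 0.43, edgeR adjusted p = 0.00163). Myh2, the myosin of type IIa fibres, had 779 to 2420.2 CPM at day 11 (median 1532), against 7.82 to 1234 CPM at day 4 (median 432) (log2 fold change 1.79 ± 0.61, edgeR adjusted p = 0.0186). It was at 2.75 without female day 4 replicate 1, and its call was lost without female day 11 replicate 1 or male day 4 replicate 1 (adjusted p up to 0.0536). Myh1, of type IIx, had 4562 to 12268 CPM at day 11 (median 5971), against 568.1 to 5442 CPM at day 4 (median 3488) and overlapped (log2 fold change 1.04 ± 0.41, edgeR adjusted p = 0.0423). This call was lost without female day 11 replicates 1, 2 or 3, male day 11 replicates 1 or 3, female day 4 replicate 2 or male day 4 replicates 1, 2 or 3 (adjusted p up to 0.106). Myh4, of type IIb, had 5628 to 17669 CPM at day 11 (median 9173), against 807 to 9267 CPM at day 4 (median 4574) and was not called (log2 fold change 1.02 ± 0.46, edgeR adjusted p = 0.0723). It passed in DESeq2 (DESeq2 adjusted p = 0.0264) and, at 1.54, without female day 4 replicate 3 (edgeR adjusted p = 0.00913). Ckm was not called (log2 fold change 0.01 ± 0.48, edgeR adjusted p = 0.991), and neither was Acta1 (log2 fold change 0.06 ± 0.47, edgeR adjusted p = 0.928). Female day 4 replicate 2 had a list mean of 8.39 log2 CPM, against 10.75 to 11.24 in the other day 4 libraries and 11.32 to 12.64 at day 11, and without it 8 rose (median 0.75). The number was 7 without male day 4 replicate 1. It was also 7 in the fit of the 12 libraries alone, where Myh1 and Myh2 were not called (edgeR adjusted p = 0.0576 and 0.0694).

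Of 16 excitation-contraction coupling genes, 7 rose and none fell (median 0.60). The share called was near the 45.5% of all genes in both directions together, and 23.5% of all genes rose. Trdn, triadin, which anchors the calcium release complex, had 1011 to 1908 CPM at day 11 (median 1569.6), against 59.1 to 588 CPM at day 4 (median 290.2), with no overlap (log2 fold change 2.24 ± 0.42, edgeR adjusted p = 0.000196). Cacna1s, the voltage sensor, had 507 to 983 CPM at day 11 (median 766), against 165 to 479 CPM at day 4 (median 366), also apart (log2 fold change 1.11 ± 0.25, edgeR adjusted p = 0.00106). Clcn1, the chloride channel of the fibre membrane, had 32.7 to 352 CPM at day 11 (median 114), against 6.04 to 57.2 CPM at day 4 (median 51.8) (log2 fold change 2.00 ± 0.50, edgeR adjusted p = 0.00244), and 1.30 without female day 11 replicate 3, its highest library. Without that library and male day 11 replicate 1 it was at 0.97 and not called (edgeR adjusted p = 0.0900). Slow fibre genes moved both ways, with 3 of 15 higher (Myl2, Myl3 and Sln) and 4 lower (Tnni1, Tpm3, Atp2a2 and Casq2). Sln, sarcolipin, an inhibitor of the calcium pump, had 209 to 1151 CPM at day 11 (median 431), against 17.0 to 136 CPM at day 4 (median 78.4), with no overlap (log2 fold change 2.72 ± 0.45, edgeR adjusted p = 5.96e-05). The calls of the slow light chains Myl2 (log2 fold change 2.44 ± 0.87, edgeR adjusted p = 0.0238) and Myl3 (log2 fold change 1.87 ± 0.72, edgeR adjusted p = 0.0350) were less firm. That of Myl2 was lost without male day 11 replicate 1, female day 4 replicates 2 or 3 or male day 4 replicate 1 (adjusted p up to 0.0791), and that of Myl3 without female day 11 replicates 1 or 3, male day 11 replicate 1, female day 4 replicates 2 or 3 or male day 4 replicates 1 or 2 (adjusted p up to 0.0908). Without female day 4 replicate 1 they were at 3.44 and 2.56. Myh7, the slow myosin, was not called (log2 fold change 0.68 ± 0.66, edgeR adjusted p = 0.413). The number of slow fibre genes that rose was 1 without male day 11 replicate 1, female day 4 replicates 2 or 3 or male day 4 replicate 1.

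Some genes of energy metabolism changed, in lists that each had a smaller share called than the 45.5% of all genes. Of 20 glycolysis and glycogen genes, 6 rose and 1, Pgk1, fell. Pgam2, the muscle phosphoglycerate mutase, had 1639 to 4617 CPM at day 11 (median 2007), against 179 to 1019.8 CPM at day 4 (median 809), with no overlap (log2 fold change 1.75 ± 0.38, edgeR adjusted p = 0.000749). Pgk1, phosphoglycerate kinase, had 50.04 to 209.9 CPM at day 11 (median 71.5), against 219 to 424 CPM at day 4 (median 339), likewise apart but lower (log2 fold change -1.90 ± 0.48, edgeR adjusted p = 0.00257). Phkg1, a subunit of phosphorylase kinase, rose (log2 fold change 1.79 ± 0.49, edgeR adjusted p = 0.00468) but was at 1.01 and not called without female day 11 replicate 3. Of 26 oxidative phosphorylation and TCA cycle genes, 6 rose and none fell (median 0.37). Cox7a1, Cox8b and Cox6a2 are the subunits of cytochrome oxidase made in muscle and heart. Cox7a1 had 197 to 642 CPM at day 11 (median 273), against 7.29 to 107 CPM at day 4 (median 84.1) (log2 fold change 2.20 ± 0.41, edgeR adjusted p = 0.000188). Cox8b changed by 1.64 ± 0.37 and Cox6a2 by 1.59 ± 0.40, all 3 without overlap (edgeR adjusted p = 0.000910 and 0.00271 for Cox8b and Cox6a2). Of 17 fatty acid oxidation genes, 3 rose (Acadvl, Eci1 and Ech1) and 2 fell (Cd36 and Etfdh). Eci1, an enoyl-CoA isomerase, rose without overlap (log2 fold change 1.06 ± 0.26, edgeR adjusted p = 0.00230), while Cd36, the fatty acid transporter, fell (log2 fold change -0.93 ± 0.27, edgeR adjusted p = 0.00771). The glycolytic genes that rose numbered 3 without female day 11 replicate 3, male day 11 replicate 1, female day 4 replicate 2 or male day 4 replicate 1. Those of oxidative phosphorylation numbered 3 without male day 11 replicate 1, female day 4 replicate 2 or male day 4 replicate 1, and those of fatty acid oxidation 1 without female day 11 replicate 1, male day 11 replicate 1, female day 4 replicates 1 or 2 or male day 4 replicates 1, 2 or 3.

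None of 18 muscle atrophy and glucocorticoid response genes rose and 7 fell (median -0.35). The share called was smaller than the 45.5% of all genes in both directions together, and 21.9% of all genes fell. Cdkn1a, the cell cycle inhibitor p21, had 72.1 to 325 CPM at day 11 (median 152), against 333 to 524 CPM at day 4 (median 400.4), with no overlap (log2 fold change -1.20 ± 0.35, edgeR adjusted p = 0.00769). It was not called without female day 11 replicate 3 and male day 11 replicate 1 (-0.85, edgeR adjusted p = 0.0582). Fkbp5, a glucocorticoid-induced co-chaperone, had 12.6 to 16.8 CPM at day 11 (median 14.3), against 22.7 to 48.7 CPM at day 4 (median 27.4), also apart (log2 fold change -1.04 ± 0.24, edgeR adjusted p = 0.00141). The metallothionein Mt2 fell (log2 fold change -1.12 ± 0.39, edgeR adjusted p = 0.0228), a call lost without female day 11 replicate 3 or male day 11 replicate 1 (adjusted p up to 0.0612). The ubiquitin ligase Fbxo32, atrogin-1, was among those that fell, whereas Trim63, MuRF1, was not called.

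Tendon and proteoglycan genes were higher at day 11. 7 of 11 tendon cell genes rose and 1, Egr2, fell (median 2.42). Tnmd, tenomodulin, a membrane protein of tendon cells, had 16.4 to 188 CPM at day 11 (median 135), against 8.33 to 17.4 CPM at day 4 (median 11.6) (log2 fold change 3.24 ± 0.49, edgeR adjusted p = 2.70e-05). The lowest day 11 library, female day 11 replicate 3 at 16.4 CPM, lay within the day 4 range and the other 5 lay at 84.4 CPM or more. Kera, keratocan, a proteoglycan that spaces collagen fibrils, had 9.32 to 75.9 CPM at day 11 (median 48.1), against 0.344 to 7.72 CPM at day 4 (median 5.68), apart (log2 fold change 3.29 ± 0.60, edgeR adjusted p = 0.000156). Fmod, fibromodulin, had 85.8 to 467 CPM at day 11 (median 162), against 19.1 to 54.6 CPM at day 4 (median 33.6) (log2 fold change 2.62 ± 0.57, edgeR adjusted p = 0.000769). Cilp2, a matrix protein of cartilage, had 5.36 to 44.5 CPM at day 11 (median 21.7), against 0.736 to 4.66 CPM at day 4 (median 3.55) (log2 fold change 2.70 ± 0.64, edgeR adjusted p = 0.00156), both with no overlap. Scx, the tendon transcription factor, was not called, and Egr2 fell (log2 fold change -1.21 ± 0.30, edgeR adjusted p = 0.00245). Across the series the median of Tnmd was 3.75 CPM in uninjured muscle and 11.6, 23.1, 135 and 53.5 CPM at days 4, 7, 11 and 15. Among 12 small leucine-rich proteoglycans, 6 rose and none fell (median 1.15). Ecm2 (log2 fold change 1.25 ± 0.22, edgeR adjusted p = 0.000105) and Aspn, asporin (log2 fold change 1.23 ± 0.40, edgeR adjusted p = 0.0143), rose with overlap, and the call of Aspn was lost without female day 11 replicate 2 (adjusted p up to 0.0532). Female day 11 replicate 3 and male day 11 replicate 1 had the lowest day 11 means of the tendon list, 4.19 and 4.97, against 5.15 to 6.11 in the other day 11 libraries and 3.04 to 4.15 at day 4.

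Collagens changed in part. Of 18 fibrillar and other collagens, 6 rose (Col3a1, Col6a1, Col4a2, Col11a1, Col14a1 and Col15a1) and none fell (median 0.53). The share called was smaller than the 45.5% of all genes in both directions together, and 23.5% of all genes rose. Col1a1, the main collagen of scar and tendon, had 1419 to 9667 CPM at day 11 (median 5315), against 2506 to 4916 CPM at day 4 (median 3923) and was not called (log2 fold change 0.41 ± 0.42, edgeR adjusted p = 0.432). Col3a1, which is laid down early in repair, had 1861 to 9630.1 CPM at day 11 (median 3854), against 1856 to 3250.1 CPM at day 4 (median 2354) and passed (log2 fold change 0.98 ± 0.38, edgeR adjusted p = 0.0365), but not without female day 11 replicate 2, male day 11 replicate 3, female day 4 replicates 1, 2 or 3 or male day 4 replicates 1 or 3 (adjusted p up to 0.209). Col11a1, a minor fibrillar collagen, had 12.2 to 74.9 CPM at day 11 (median 41.4), against 5.49 to 28.0 CPM at day 4 (median 8.16) (log2 fold change 2.00 ± 0.51, edgeR adjusted p = 0.00290). Col14a1, which sits on fibril surfaces, had 36.3 to 156 CPM at day 11 (median 102), against 31.6 to 54.0 CPM at day 4 (median 37.0) (log2 fold change 1.22 ± 0.33, edgeR adjusted p = 0.00465). The days overlapped in each. Of 16 collagen processing and crosslinking enzymes, 1, Pcolce, rose and 4 fell (P4ha1, P4ha2, Loxl3 and Loxl4). Loxl4, a lysyl oxidase, had 2.07 to 3.00 CPM at day 11 (median 2.39), against 3.40 to 5.80 CPM at day 4 (median 4.72), with no overlap (log2 fold change -0.94 ± 0.30, edgeR adjusted p = 0.0120). The calls of Pcolce (log2 fold change 0.74 ± 0.28, edgeR adjusted p = 0.0306) and Loxl3 (log2 fold change -0.83 ± 0.32, edgeR adjusted p = 0.0381) were each lost without any 1 of 7 libraries in turn (adjusted p up to 0.126 and 0.0942). The number that fell was 2 without male day 4 replicate 2.

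Matrix glycoproteins and cartilage and bone genes were mixed. Of 21 matrix glycoproteins, 8 rose and 2 fell (Fbln2 and Ltbp2). Eln, elastin, had 180.2 to 586 CPM at day 11 (median 274), against 55.2 to 104 CPM at day 4 (median 72.3) (log2 fold change 2.10 ± 0.24, edgeR adjusted p = 1.89e-06). Mfap4, a microfibril protein that binds it, had 150.4 to 563 CPM at day 11 (median 309), against 34.2 to 104 CPM at day 4 (median 52.4) (log2 fold change 2.44 ± 0.40, edgeR adjusted p = 4.92e-05). Comp, cartilage oligomeric matrix protein, had 23.1 to 101 CPM at day 11 (median 31.3), against 3.34 to 12.1 CPM at day 4 (median 9.71) (log2 fold change 2.49 ± 0.56, edgeR adjusted p = 0.000995). Every day 11 library was above every day 4 library in these 3 genes. Fibronectin, Fn1 (log2 fold change -0.04 ± 0.42, edgeR adjusted p = 0.948), and periostin, Postn (log2 fold change 0.74 ± 0.48, edgeR adjusted p = 0.209), were not called. The cartilage and bone genes split, with 3 of 12 higher (Acan, Col2a1 and Alpl) and 5 lower (Sox9, Runx2, Sp7, Spp1 and Col10a1). Acan, aggrecan, the large proteoglycan of cartilage, had the largest rise of the genes named by size, with 5.17 to 30.6 CPM at day 11 (median 18.9), against 0.399 to 1.28 CPM at day 4 (median 0.823) (log2 fold change 4.35 ± 0.64, edgeR adjusted p = 2.57e-05). Col2a1, cartilage collagen, had 1.39 to 6.13 CPM at day 11 (median 4.10), against 0.285 to 1.01 CPM at day 4 (median 0.484) (log2 fold change 2.91 ± 0.47, edgeR adjusted p = 5.08e-05). Both were apart. Sox9 and Runx2, the regulators of cartilage and bone, fell. The number of matrix glycoproteins that fell was 1 without female day 11 replicate 3, male day 11 replicate 1, female day 4 replicate 2 or male day 4 replicate 2 and 4 without female day 11 replicate 2.

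**Figure D5:**
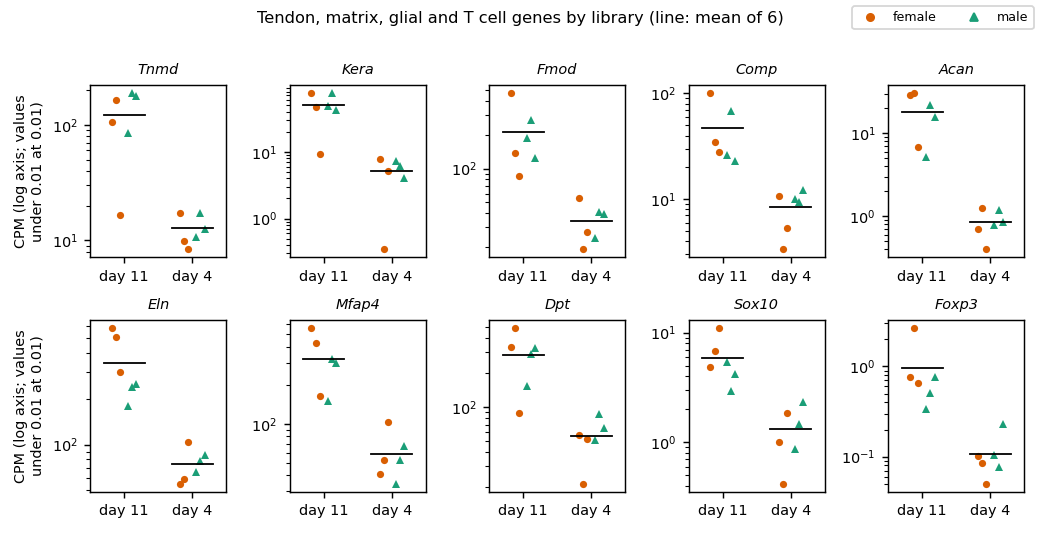
CPM (log axis, with values under 0.01 drawn at 0.01) of 10 genes that rose, by library, with day 11 left of day 4 in each panel, circles for female and triangles for male libraries and a line at the mean of 6. In all but Tnmd every day 11 point lies above every day 4 point, as for Acan (5.17 to 30.6 CPM at day 11, against 0.399 to 1.28 CPM at day 4).

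Proteases and fibroblast markers were mixed. Matrix proteases and their inhibitors numbered 19, of which 7 rose and 4 fell. Mmp3, stromelysin, had 2.69 to 33.5 CPM at day 11 (median 18.1), against 2.18 to 7.19 CPM at day 4 (median 4.13), with overlap (log2 fold change 1.88 ± 0.48, edgeR adjusted p = 0.00289). Mmp13, a collagenase, rose (log2 fold change 2.62 ± 0.90, edgeR adjusted p = 0.0196), but at 1.77 it was not called without male day 11 replicate 2, nor was it without female day 11 replicate 1 (adjusted p up to 0.103). Mmp2, gelatinase A, had 153 to 566 CPM at day 11 (median 396), against 86.2 to 133 CPM at day 4 (median 100.4), with no overlap (log2 fold change 1.82 ± 0.30, edgeR adjusted p = 4.92e-05). Mmp8, the collagenase of neutrophils, fell (log2 fold change -1.70 ± 0.44, edgeR adjusted p = 0.00323). Of 14 activated fibroblast and myofibroblast markers, 6 fell (Acta2, Runx1, Ncam1, S100a4, Pdpn and Inhba) and 1, Fap, rose (median -0.67), and the number that fell was 3 without male day 11 replicate 1. Fap, a surface protease of activated fibroblasts, had 26.4 to 41.2 CPM at day 11 (median 36.7), against 12.4 to 15.6 CPM at day 4 (median 14.2) (log2 fold change 1.34 ± 0.18, edgeR adjusted p = 7.57e-06). Inhba, which encodes the activin subunit, had 1.21 to 1.86 CPM at day 11 (median 1.57), against 2.52 to 13.4 CPM at day 4 (median 3.83) (log2 fold change -1.70 ± 0.36, edgeR adjusted p = 0.000652). Ncam1, an adhesion molecule also found on regenerating fibres, had 64.8 to 215 CPM at day 11 (median 127), against 227 to 367 CPM at day 4 (median 315) (log2 fold change -1.29 ± 0.27, edgeR adjusted p = 0.000609). In these 3 genes the days were apart.

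Of 16 fibro-adipogenic progenitor markers, 6 rose and 2 fell (Pdgfra and Hsd11b1). Dpt, dermatopontin, had 88.7 to 496 CPM at day 11 (median 312), against 21.1 to 86.2 CPM at day 4 (median 54.3), with no overlap (log2 fold change 2.38 ± 0.34, edgeR adjusted p = 1.50e-05). Pi16, a marker of adventitial progenitors, had 10.8 to 63.9 CPM at day 11 (median 24.4), against 1.57 to 11.3 CPM at day 4 (median 8.39), with overlap (log2 fold change 1.87 ± 0.33, edgeR adjusted p = 0.000110). Penk, the enkephalin precursor, rose (log2 fold change 1.22 ± 0.29, edgeR adjusted p = 0.00171), while the defining receptor Pdgfra fell. The number that fell was 1 without female day 11 replicate 1, male day 11 replicate 1 or female day 4 replicate 2. Of 11 adipocyte genes, 2 rose (Fabp4 and Plin4) and none fell, a smaller share called than the 45.5% of all genes. The number that rose was 1 without female day 11 replicate 3, male day 11 replicate 1, female day 4 replicate 2 or male day 4 replicate 1. Fabp4, a lipid chaperone also made by endothelium, had 189 to 402 CPM at day 11 (median 296), against 108 to 207 CPM at day 4 (median 145) (log2 fold change 0.95 ± 0.27, edgeR adjusted p = 0.00611), and was not called without female day 4 replicate 2 and female day 11 replicate 3 (0.71, edgeR adjusted p = 0.0591). Female day 11 replicate 3 had an adipocyte list mean of 3.38 log2 CPM, against 1.41 to 2.12 in the other day 11 libraries.

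Growth factor pathways moved in both directions. Among 19 TGF-beta signalling genes, 5 rose (Tgfbr3, Smad3, Ltbp3, Ltbp4 and Fst) and 8 fell, the ligand Tgfb1 and the receptor Tgfbr1 among them. Ccn2, connective tissue growth factor, a classical target of the pathway, had 18.7 to 44.2 CPM at day 11 (median 27.9), against 54.1 to 185 CPM at day 4 (median 86.4), with no overlap (log2 fold change -1.68 ± 0.40, edgeR adjusted p = 0.00153). Ltbp4, a matrix protein that binds latent TGF-beta, had 173 to 297 CPM at day 11 (median 248), against 39.0 to 106 CPM at day 4 (median 82.3) (log2 fold change 1.59 ± 0.20, edgeR adjusted p = 4.02e-06), also apart. The number that rose was 3 without female day 11 replicate 3. In the insulin-like growth factor list 3 of 12 rose (Igf1, Igfbp4 and Igfbp6) and 2 fell (Igf2r and Igf2bp2). Igf1, which drives fibre growth, had 101 to 484 CPM at day 11 (median 308), against 62.2 to 112 CPM at day 4 (median 98.9), with overlap (log2 fold change 1.70 ± 0.32, edgeR adjusted p = 0.000195). Its binding proteins Igfbp4 and Igfbp6 rose without overlap: Igfbp4 had 187 to 633 CPM at day 11 (median 512), against 106 to 157 CPM at day 4 (median 143) (log2 fold change 1.68 ± 0.26, edgeR adjusted p = 3.69e-05). Igfbp6 had 42.9 to 97.1 CPM at day 11 (median 66.6), against 18.8 to 38.1 CPM at day 4 (median 31.3) (log2 fold change 1.23 ± 0.25, edgeR adjusted p = 0.000374). Of 18 Wnt and Notch signalling genes, 4 rose (Wnt5b, Sfrp4, Dkk3 and Axin2) and 3 fell (Wnt5a, Notch3 and Heyl), and the number that fell was 1 without female day 11 replicate 3, male day 11 replicate 1, female day 4 replicate 2 or male day 4 replicate 2. Dkk3, a secreted Dickkopf-family protein, had 13.7 to 57.4 CPM at day 11 (median 45.5), against 6.39 to 8.92 CPM at day 4 (median 8.08) (log2 fold change 2.28 ± 0.43, edgeR adjusted p = 0.000216), and the ligand Wnt5b had 2.72 to 4.99 CPM at day 11 (median 3.85), against 1.17 to 2.09 CPM at day 4 (median 1.51) (log2 fold change 1.34 ± 0.23, edgeR adjusted p = 7.19e-05), both apart. Sfrp4, a secreted Frizzled-related protein, rose with overlap (log2 fold change 1.84 ± 0.40, edgeR adjusted p = 0.000679).

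Several vessel and nerve genes were higher. 10 of 16 endothelial markers rose and none fell (median 0.57). Egfl7, a secreted protein of endothelium, had 159 to 268 CPM at day 11 (median 188), against 51.3 to 84.8 CPM at day 4 (median 73.3) (log2 fold change 1.504 ± 0.21, edgeR adjusted p = 1.33e-05). Cldn5, a tight junction claudin, had 44.5 to 57.1 CPM at day 11 (median 53.8), against 14.1 to 27.5 CPM at day 4 (median 20.9) (log2 fold change 1.35 ± 0.22, edgeR adjusted p = 5.44e-05). Robo4, a guidance receptor of vessels, had 58.2 to 135 CPM at day 11 (median 77.1), against 27.9 to 39.4 CPM at day 4 (median 32.8) (log2 fold change 1.35 ± 0.22, edgeR adjusted p = 5.30e-05). All 3 were apart, while the junction gene Pecam1 was not called (log2 fold change 0.24 ± 0.15, edgeR adjusted p = 0.181). Without female day 4 replicate 2 and female day 11 replicate 3 together 6 rose. Pericyte and smooth muscle markers split, 4 of 13 higher (Rgs5, Kcnj8, Myh11 and Higd1b) and 3 lower (Notch3, Lmod1 and Synpo2). Myh11, smooth muscle myosin, had 42.4 to 70.5 CPM at day 11 (median 65.1), against 9.19 to 24.8 CPM at day 4 (median 14.8), with no overlap (log2 fold change 1.87 ± 0.25, edgeR adjusted p = 7.36e-06), and Synpo2, an actin-binding protein of muscle, fell (log2 fold change -1.80 ± 0.54, edgeR adjusted p = 0.00836). Of 12 Schwann and nerve repair genes, 7 rose and 2 fell (Ngfr and Erbb3) (median 1.14). The myelin genes Mbp and Pmp22, and Gdnf, were not called. S100b, a calcium-binding protein of glia, had 3.35 to 6.02 CPM at day 11 (median 4.45), against 0.508 to 1.55 CPM at day 4 (median 1.09) (log2 fold change 2.16 ± 0.28, edgeR adjusted p = 5.44e-06). Ncmap, a myelin protein of peripheral nerve, had 1.35 to 4.36 CPM at day 11 (median 2.03), against 0.0491 to 0.516 CPM at day 4 (median 0.441) (log2 fold change 2.73 ± 0.49, edgeR adjusted p = 0.000128), both apart. Sox10, the regulator of Schwann cells, had 2.91 to 11.1 CPM at day 11 (median 5.14), against 0.417 to 2.32 CPM at day 4 (median 1.24), with no overlap (log2 fold change 2.10 ± 0.34, edgeR adjusted p = 5.20e-05). The number that rose was 4 without male day 11 replicate 1.

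Genes of protein folding, sterol synthesis and early response fell in part. Of 16 endoplasmic reticulum stress and secretory genes, 10 fell and 2, Ddit3 and Atf4, rose (median -0.90). Hspa5, the chaperone BiP, had 89.4 to 199 CPM at day 11 (median 144), against 343 to 567 CPM at day 4 (median 371) (log2 fold change -1.52 ± 0.24, edgeR adjusted p = 3.26e-05). Canx, calnexin, had 44.3 to 127 CPM at day 11 (median 77.4), against 159 to 388 CPM at day 4 (median 227) (log2 fold change -1.55 ± 0.26, edgeR adjusted p = 7.46e-05). Ddit3, the stress-induced factor CHOP, had 31.3 to 53.2 CPM at day 11 (median 41.2), against 7.95 to 16.5 CPM at day 4 (median 15.3) (log2 fold change 1.54 ± 0.22, edgeR adjusted p = 1.77e-05). The days were apart in these 3, with Ddit3 higher and the chaperones lower at day 11. The number that rose was 1 without female day 4 replicate 1 or male day 4 replicate 2. Of 14 heat shock chaperones, 4 fell (Hsp90aa1, Hsph1, Hspd1 and Hspe1) and none rose. Hsp90aa1, the inducible Hsp90, had 22.3 to 73.0 CPM at day 11 (median 54.4), against 113 to 228 CPM at day 4 (median 129), with no overlap (log2 fold change -1.53 ± 0.23, edgeR adjusted p = 2.42e-05). Of 13 cholesterol synthesis genes, 7 fell and 1, Mvd, rose (median -0.54). Sqle, squalene epoxidase, had 4.07 to 6.70 CPM at day 11 (median 4.299), against 10.2 to 20.8 CPM at day 4 (median 12.9) (log2 fold change -1.500 ± 0.25, edgeR adjusted p = 7.11e-05). Cyp51, which removes a methyl group from lanosterol, fell (log2 fold change -1.39 ± 0.26, edgeR adjusted p = 0.000166). Both were lower in every day 11 library. Of 16 immediate early genes, 5 fell (Fosl1, Junb, Egr2, Myc and Ier3) and none rose. In this list and in that of heat shock chaperones the share called was smaller than the 45.5% of all genes in both directions together. Of all genes, 21.9% fell. Myc, a growth-promoting transcription factor, had 7.14 to 14.1 CPM at day 11 (median 10.5), against 18.6 to 38.9 CPM at day 4 (median 24.6), with no overlap (log2 fold change -1.27 ± 0.26, edgeR adjusted p = 0.000472).

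Vegfa, the vessel growth factor, had 100.5 to 923 CPM at day 11 (median 301), against 40.7 to 175 CPM at day 4 (median 121), with overlap (log2 fold change 1.93 ± 0.47, edgeR adjusted p = 0.00199), and its log2 fold change was 1.19 without female day 11 replicate 3. The call was lost without that library and female day 4 replicate 2 together (1.03, edgeR adjusted p = 0.0582), and without it and male day 11 replicate 1 (0.84, edgeR adjusted p = 0.0964). Vegfa was 1 of 2 hypoxia-responsive genes that rose, with Higd1a, while 5 of 14 fell (Slc2a1, Car9, Egln3, Ero1a and Ddit4), such as Car9, a carbonic anhydrase (log2 fold change -1.22 ± 0.31, edgeR adjusted p = 0.00301). The number that rose was 1 without male day 11 replicate 1, female day 4 replicate 2 or male day 4 replicate 2. Of 16 cytosolic ribosomal protein genes, 5 fell (Rpl3, Rpl4, Rpl5, Rps4x and Rps6), where reads may be shared with pseudogenes, and 1 rose. Rpl3, a subunit of the large ribosome particle, had 98.3 to 381 CPM at day 11 (median 216), against 436 to 604 CPM at day 4 (median 440.2) (log2 fold change -1.09 ± 0.26, edgeR adjusted p = 0.00190), and the number that fell was 3 without male day 11 replicate 1. Rpl3l, its striated muscle paralog, had 101 to 497 CPM at day 11 (median 253), against 4.43 to 125 CPM at day 4 (median 109) (log2 fold change 1.55 ± 0.51, edgeR adjusted p = 0.0157), a call lost without female day 11 replicate 3 (adjusted p up to 0.0610). Of 5 tested erythroid genes, 1 fell, the haem synthesis enzyme Alas2 (log2 fold change -1.39 ± 0.49, edgeR adjusted p = 0.0228). Its highest day 4 library was female day 4 replicate 3 at 48.7 CPM, without which the log2 fold change was -0.49 and not called, and the call was lost without male day 11 replicate 3, female day 4 replicate 3 or male day 4 replicate 1 (adjusted p up to 0.338).

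The remaining genes of largest change belong to varied families. Gal, the neuropeptide galanin, had 0.136 to 0.932 CPM at day 11 (median 0.554), against 14.7 to 29.8 CPM at day 4 (median 23.7) (log2 fold change -5.33 ± 0.49, edgeR adjusted p = 2.46e-07). Ptprn, a membrane protein of secretory granules, had 0.5505 to 2.25 CPM at day 11 (median 1.08), against 11.2 to 32.5 CPM at day 4 (median 13.5) (log2 fold change -3.78 ± 0.39, edgeR adjusted p = 7.04e-07). Tubb3, the tubulin isotype of neurons, had 0.763 to 2.58 CPM at day 11 (median 1.42), against 17.4 to 25.8 CPM at day 4 (median 20.4) (log2 fold change -3.74 ± 0.49, edgeR adjusted p = 6.56e-06). Hmga2, a chromatin protein of growing tissue, had 0.218 to 1.69 CPM at day 11 (median 0.682), against 6.78 to 22.0 CPM at day 4 (median 8.15) (log2 fold change -3.61 ± 0.48, edgeR adjusted p = 6.56e-06). R3hdml had 0.491 to 5.83 CPM at day 11 (median 4.22), against 26.3 to 44.2 CPM at day 4 (median 31.0) (log2 fold change -3.17 ± 0.51, edgeR adjusted p = 5.22e-05). All 5 were lower in every day 11 library.

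Among the rises, Spon2, a secreted F-spondin family protein, had 13.5 to 39.97 CPM at day 11 (median 19.5), against 0.245 to 1.83 CPM at day 4 (median 1.23) (log2 fold change 4.25 ± 0.55, edgeR adjusted p = 5.44e-06). Matn4, a matrilin of cartilage and other matrix, had 7.46 to 50.8 CPM at day 11 (median 16.7), against 0.405 to 1.601 CPM at day 4 (median 1.17) (log2 fold change 4.23 ± 0.67, edgeR adjusted p = 4.18e-05). Adamts16, a secreted metalloprotease, had 8.01 to 14.6 CPM at day 11 (median 10.8), against 0.390 to 1.52 CPM at day 4 (median 1.26) (log2 fold change 3.35 ± 0.37, edgeR adjusted p = 1.18e-06). Hmcn2, a large hemicentin matrix protein, had 129 to 525 CPM at day 11 (median 196), against 3.10 to 47.2 CPM at day 4 (median 29.9) (log2 fold change 3.17 ± 0.38, edgeR adjusted p = 3.12e-06). Clec3b, tetranectin, which binds plasminogen, had 27.0 to 91.3 CPM at day 11 (median 70.2), against 0.663 to 15.9 CPM at day 4 (median 9.98) (log2 fold change 3.00 ± 0.37, edgeR adjusted p = 3.82e-06). Zfp185, a LIM domain protein, had 19.7 to 27.0 CPM at day 11 (median 24.3), against 1.64 to 2.96 CPM at day 4 (median 2.22) and the transmembrane mucin Muc4 had 2.18 to 28.6 CPM at day 11 (median 7.89), against 0.0736 to 2.11 CPM at day 4 (median 0.761), with log2 fold changes of 3.42 ± 0.32 and 3.80 ± 0.60 (edgeR adjusted p = 2.05e-07 and 3.85e-05). Muc4 was at 2.86 without female day 11 replicate 3. Meg3, an imprinted long noncoding RNA from the same domain as Dlk1, had 1584 to 3557 CPM at day 11 (median 2175), against 204 to 419.6 CPM at day 4 (median 255) (log2 fold change 3.07 ± 0.39, edgeR adjusted p = 5.04e-06). These 8 were higher in every day 11 library. The genes named by size, with Arg1, Spp1, Chil3, Ccl2, Ccr1, Acan and Kera among those given earlier, were taken from genes whose days did not overlap. The lack of overlap in them is part of the choice.

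Fewer genes passed the test within each sex as labelled. In females 2678 genes were higher at day 11 (15.6%) and 2404 lower (14.0%), 29.7% in all. In males 1435 were higher (8.37%) and 1551 lower (9.05%), 17.4% in all. Of these, 1248 were higher in both sexes, 1213 were lower in both, and none was called in opposite directions. Single libraries moved these counts by more than 1.5 times. In females they were 976 higher and 940 lower without female day 4 replicate 2, and the number higher was 1629 without female day 11 replicate 3 and 1747 without female day 4 replicate 1. In males they were 531 and 439 without male day 11 replicate 1, 518 and 760 without male day 11 replicate 3, 240 and 567 without male day 4 replicate 1 and 344 and 771 without male day 4 replicate 2, and 821 were higher without male day 4 replicate 3. The female minus male difference in the change was tested for every gene, and 0 of 17136 (0.0%) passed in edgeR, where 278 genes (1.62%) had an unadjusted p under 0.05 and the lowest adjusted p was 1.0. DESeq2 called 4, named here after their values were seen: the Y-linked Kdm5d, Uty and Ddx3y and the transcript 1700001O22Rik (DESeq2 adjusted p = 0.0106). As given above, Ddx3y stood at 57.4 CPM in the library labelled female day 11 replicate 3, with 0.109 CPM of Xist. The other libraries labelled female had 366 to 566 CPM of Xist and no counts of Ddx3y. Those labelled male had 0.030 to 0.393 CPM of Xist and 30.6 to 66.4 CPM of Ddx3y. In both transcripts female day 11 replicate 3 lay within the range of the male libraries. The results for females and for the sex difference include it under its label, so they may mix the sexes. Without this library 620 genes had an unadjusted p under 0.05 for the sex difference in edgeR, and 0 passed after adjustment. A test that calls nothing does not show that the sexes changed alike, and Arg1, for example, had a log2 fold change of -6.68 ± 0.91 in females and -3.64 ± 0.79 in males, a difference of -3.04 (edgeR adjusted p = 1.00).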

How the data were processed

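Counts per gene symbol, whole numbers, were deposited by the authors for 30 RNA libraries of tibialis anterior. Alignment with STAR, a use of edgeR and the build mm39 are named per the submitters' processing notes, with the counting program, annotation and strand setting not given in the sources used here. Reads of antisense, overlapping or near-identical genes may therefore be shared. Extraction and library preparation were done by a commercial laboratory, per the labels' protocols. Between 65.5% and 74.2% of counts from 1 to 20 were even, as when both reads of a pair are counted, so halved counts were tried.

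Samples were grouped by the sex and day in their titles, 3 libraries in each of 10 groups. edgeR 4.0.16 in R 4.3.3 (limma 3.58.1) fitted all 30 libraries by group after filterByExpr, which kept 17136 of 26264 symbols, and TMM scaling. The quasi-likelihood F-test compared day 11 with day 4 with the sexes weighted equally, within each sex, and the female minus male difference, with Benjamini-Hochberg adjustment over all genes and a threshold of 0.05. The procedure was tested on counts simulated from its own fitted model, with known fold changes in some well-counted genes. That does not test how well the model suits these libraries. log2 CPM used a prior count of 2. Alternatives were other scalings and filters, DESeq2 1.42.0, the 12 libraries alone, a replicate block, thinning, halved counts, a 1.5-fold test and leaving out libraries.

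Named genes were the 10 of largest rise and fall that averaged 5 CPM or more with the days apart (clone names passed over), up to 3 called members of each list with the largest change and an average of 1 CPM or more, and further genes set by name. The 53 lists hold 777 symbols, 754 tested; a few genes are not reported here. Members and lists were chosen with earlier results of these data known. Among the 12 compared libraries, the lowest chi-square per degree of freedom between replicates of the same sex and day was 55.4. No library was therefore a copy of another replicate in its group, and pairs from different groups were not checked. Promoters are from RefSeq.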

Additional observations from a re-analysis of the deposited data

Results flagged for a closer look

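Values here are log2 CPM (means over a list for lists), with the range of the other 5 libraries of that day after each. In 58 of the 456 groups of 6 libraries examined (12.7%), 1 library lay far outside the others by Dixon's criterion. Independent normal values meet it in about 1 in 20 groups. Here each group pools the sexes and the same libraries recur in every gene and list, so the 12.7% cannot be judged against that rate. At day 11, female day 11 replicate 3 was lowest for Kera 3.23 against 5.42 to 6.25 and Tnmd 4.04 against 6.40 to 7.55, and highest for Mmp8 1.18 against -0.69 to -0.06. Among lists it was lowest for slow fibre contractile genes 5.79 against 6.49 to 6.86 and heat shock chaperones 5.99 against 6.59 to 6.81, and highest for neuromuscular junction genes 5.86 against 5.20 to 5.44 and adipocyte genes 3.38 against 1.41 to 2.12. Female day 11 replicate 2 was highest for Xaf1 6.53 against 4.68 to 5.18, T cell markers 2.051 against -0.12 to 0.69 and interferon-stimulated genes 6.41 against 3.82 to 4.499.

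At day 4 most of these values came from female day 4 replicate 2, the library lowest in mature muscle transcripts. It was lowest for Acta1 11.77 against 13.73 to 14.13, Cacna1s 7.36 against 8.44 to 8.90, Chrne -1.95 against 2.92 to 3.61, Cilp2 -0.35 against 1.70 to 2.23, Ckm 8.32 against 10.62 to 11.33, Clcn1 2.61 against 5.50 to 5.84, Clec3b -0.49 against 2.41 to 3.99, Cox6a2 5.59 against 8.14 to 8.86 and Cox7a1 2.88 against 5.72 to 6.74. The same library was lowest for Cox8b 4.43 against 6.61 to 7.36, Ddit3 3.00 against 3.82 to 4.04, Dpt 4.40 against 5.69 to 6.43, Eci1 4.10 against 5.19 to 5.61, Hmcn2 1.66 against 4.58 to 5.56, Kcnj8 1.26 against 2.65 to 3.41, Kera -1.34 against 2.01 to 2.96, Myh1 9.15 against 11.61 to 12.41 and Ncmap -3.33 against -1.23 to -0.82. It was lowest, further, for Pgam2 7.49 against 9.21 to 9.99, Phkg1 3.22 against values up to 6.58, Pi16 0.70 against values from 2.75, Plin4 2.44 against 5.17 to 5.72, Pvalb 6.06 against 10.31 to 11.80, Rpl3l 2.16 against 6.30 to 6.97, Sfrp4 -0.37 against 1.83 to 3.01 and Tnni2 8.20 against 10.87 to 11.60. It was highest for C5ar1 6.73 against 5.55 to 5.89, Car9 2.58 against 1.37 to 1.65, Col11a1 4.81 against 2.47 to 3.34, Fkbp5 5.61 against 4.51 to 4.84, Hmga2 4.46 against 2.77 to 3.23, Hspa5 9.15 against 8.42 to 8.65, Megf10 5.85 against 4.61 to 4.98 and Rpl3 9.24 against 8.77 to 8.94. Among lists its mean was lowest for dendritic cell markers 2.22 against 2.70 to 2.90, T cell markers -1.39 against -0.65 to -0.23, fast fibre contractile genes 8.39 against 10.75 to 11.24, excitation-contraction coupling genes 6.50 against 7.58 to 8.02 and neuromuscular junction genes 5.11 against 5.54 to 5.69. Its mean was also lowest for glycolysis and glycogen genes 7.17 against 8.42 to 8.85, oxidative phosphorylation and TCA cycle genes 7.07 against 7.94 to 8.26, fatty acid oxidation genes 5.41 against 5.94 to 6.19 and heat shock chaperones 6.37 against 6.89 to 7.11. It was highest for insulin-like growth factor genes 6.11 against 5.91 to 5.96 and endoplasmic reticulum stress and secretory genes 6.99 against 6.50 to 6.62. Female day 4 replicate 1 was lowest for Folr2 5.29 against 5.73 to 5.97. Male day 4 replicate 1 was lowest for Adamts16 -1.18 against -0.03 to 0.65. Male day 4 replicate 3 was lowest for Dkk3 2.69 against 2.99 to 3.17. Whether muscle sampling, cell makeup or library preparation set these libraries apart was not tested.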

How the results depend on the processing

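Depth differed between the days without overlap, and with every library thinned to the smallest total 3766 genes were higher at day 11 and 3454 lower. The counts for both sexes stayed within 1.5 times of 4032 and 3759 under RLE scaling, library size alone, both filter settings, DESeq2 (4184 and 4101), the 12 libraries alone and halved counts. No clear pairing of samples by replicate number was seen, but with 3 libraries a group this check cannot exclude it. The mean residual correlation was 0.0617 over 18 same-numbered pairs, the lowest -0.312, against -0.0315 over 36 others. With the replicate block 3983 genes were higher and 3759 lower, and it changed no named gene's call. With the 12 libraries alone 6 named genes lost their calls (Alas2, Col3a1, Myh1, Myh2, Oas3 and Xaf1, adjusted p of 0.0504 to 0.0748), with library size alone 3 did (Col3a1, Pcolce and Xaf1, 0.0958 to 0.13), with no filter Myh1 did, and against a 1.5-fold change 38 did.

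Against a 1.5-fold change the counts were 1587 higher and 1345 lower for both sexes, 1035 and 709 in females, and 214 and 332 in males. With library size alone 633 were higher in males. DESeq2 called 4 genes for the sex difference, where edgeR called 0. Leaving out 1 library at a time gave 3102 to 4072 higher and 3324 to 3817 lower for both sexes, 976 to 2711 and 940 to 2464 in females, 240 to 1614 and 439 to 2080 in males, and 0 to 0 for the sex difference. Without both female day 4 replicate 2 and female day 11 replicate 3, a choice made after seeing the data, 447 were higher and 350 lower in females and 1741 and 2138 in males. Without both female day 11 replicate 3 and male day 11 replicate 1, also chosen after seeing the data, 830 were higher and 788 lower in males and 1728 were higher in females. Without the first pair 15 named genes lost their calls (Fabp4, Itgax, Kcnj8, Loxl3, Mrc1, Mt2, Myh1, Myl2, Myl3, Oas3, Phkg1, Plin4, Rpl3l, Rsad2 and Vegfa), and without the second 19 did (Cd209a, Cdkn1a, Clcn1, Egln3, Flt3, Gzma, Itgax, Kcnj8, Loxl3, Mt2, Myh1, Myl2, Myl3, Oas3, Phkg1, Plin4, Rpl3l, Rsad2 and Vegfa). Of 35 list counts of 5 or more genes, 8 moved by over 1.5 times without the first pair, 7 without the second, 24 against a 1.5-fold change and 2 with the 12 libraries alone (7 fast fibre genes higher and 2 ribosomal protein genes lower). Leaving out 1 library also ended the calls of Etfdh, Mcpt4, Plin4 and Xaf1. Of the named genes, 5 that were not called changed sign. Ckm was -0.019 under RLE scaling and in DESeq2, -0.15 with library size alone, -0.0099 with no filter, -0.27 to 0.26 leaving out 1 library, and -0.24 and -0.21 without those pairs of libraries. Acta1 was -0.10 with library size alone, -0.19 to 0.23 leaving out 1 library and -0.045 without the first pair. Fn1 was -0.37 to 0.16 leaving out 1 library, and 0.18 and 0.34 without those pairs. Leaving out 1 library, Myh8 was -0.023 to 0.42 and Igf2 -0.0076 to 0.38, and without the second pair they were 0.64 and 0.53. The cause was not tested.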
